A study of Mus musculus with 4 samples.

Results

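Nedd4 encodes a ubiquitin ligase of the HECT type, and its mRNA carried 12 of the 4172 distinct peaks that NAT10 eCLIP yielded in mouse 32D cells. The members are all entries of the authors' deposited peak list whose gene is Nedd4, so the list's own calls chose them. Every value given here for these peaks is therefore a description and was not tested. The 12 peaks lie on the plus strand of chromosome 9 (build GRCm39) under 1 gene identifier, ENSMUSG00000032216, and none of them was also listed under another gene.

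NAT10 is the enzyme that acetylates cytidines in RNA, the mark known as ac4C. In eCLIP, ultraviolet light fixes a protein to the RNA it touches, and the fragments that come down with an antibody are sequenced beside an input library made without that antibody. The series held 2 NAT10 immunoprecipitates (IP) and 2 inputs, all of wild-type genotype and all from 32D cells, an established mouse bone marrow line kept in medium with interleukin-3 (10 ng/mL). All 4 libraries come from 1 cell line, and the labels do not tell if replicates were grown separately. Cells were crosslinked before lysis, at 150 mJ and 254 nm. The series set out to find mRNA that NAT10 binds directly, with haematopoietic stem cells in view.

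NEDD4 transfers ubiquitin to proteins that carry proline-rich PY motifs, which its WW domains recognise, while a C2 domain brings it to membranes. It is the founding member of a ligase family and is known for sorting receptors and other membrane proteins into endosomes, for growth factor signalling and for the release of viruses. Adaptors of the Ndfip and arrestin-domain kinds extend its reach to proteins without a PY motif. The ubiquitin it uses comes by way of an activating enzyme and of conjugating enzymes such as those of the Ube2d group.

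NAT10 peaks lay in each part of the Nedd4 mRNA: 3 were in the 5' UTR, 4 in the authors' exon class (exonic, outside the UTRs) and 5 in the 3' UTR. From the first base of the first peak to the last base of the last one they spanned 80006 nt of the genome, introns included, and together they covered 984 nt. The median log2 fold of IP over input was 4.57 over the 12 Nedd4 peaks, which is 23.8-fold, against 4.60 (24.3-fold) over all 4172 peaks. The range was 3.80 to 6.17 in Nedd4 and 3.00 to 11 in the whole list. By their deposited fold, 5 Nedd4 peaks stood above the list's median, 6 stood below it and 1 sat on it. Most Nedd4 peaks were of ordinary fold for the list, and the highest fold was that of the widest peak, in the 3' UTR.

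**Figure D1:**
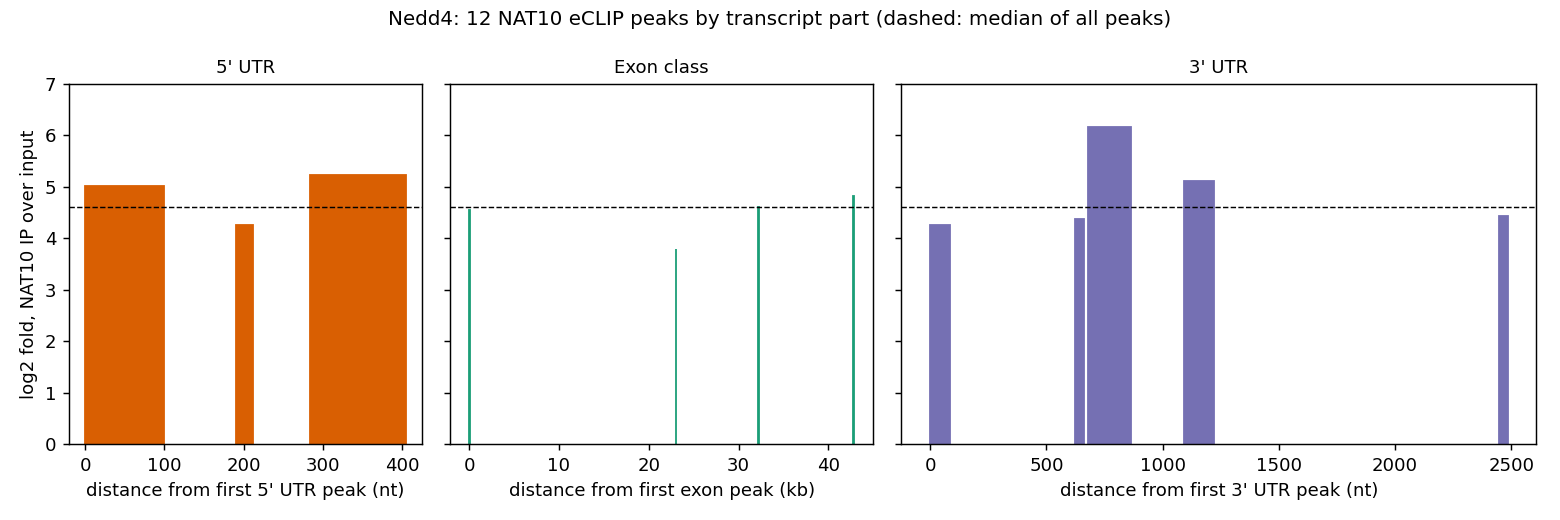
Deposited log2 fold of NAT10 IP over input (vertical axis) for the 12 Nedd4 peaks, in 3 panels for the 5' UTR, the exon class and the 3' UTR. The horizontal axis gives genomic distance from the first peak of that class, in nt or, for the exon class, in kb. All bars have an outline of the same thickness, so bars of the exon class look wider than their peaks. Each bar spans 1 peak and the dashed line marks the median of all peaks, 4.60; the tallest bar, 6.17, stands in the 3' UTR.

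The 5' UTR peaks were packed into 405 nt. The first, at 72576948 to 72577046 (99 nt), had a deposited log2 fold of 5.0 at a -log10 p of 6.67. A short second peak of 22 nt followed at 72577138 to 72577159, with a log2 fold of 4.26 at a -log10 p of 3.73. The third, at 72577232 to 72577352 (121 nt), reached 5.23 with a -log10 p of 7.68 and was the second strongest peak of the gene. Gaps of 91 nt and 72 nt separated these 3 peaks. Both outer peaks exceeded the median of all 237 peaks in 5' UTRs, 4.50: the first had a higher fold than 72.2% of them and the third than 80.6%. The middle peak exceeded 35.9% of them.

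The exon class held 4 peaks that lay far apart, with gaps of 23004, 9084 and 10520 nt in the genome, so they did not form a cluster like those at either end. The first, at 72593340 to 72593389 (50 nt), had a log2 fold of 4.55. The second, at 72616394 to 72616420 (27 nt), was the lowest Nedd4 peak, with a log2 fold of 3.80, which is 13.9-fold. At 72625505 to 72625577 (73 nt) the third stood at 4.60, and at 72636098 to 72636209 (112 nt) the fourth stood at 4.81. The median of these 4 peaks, 4.57, was close to that of all 1532 exon peaks, 4.55. Which numbered exon each of them falls in was not determined, since no gene model of this build was used.

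In the 3' UTR, 5 peaks were spread over 2484 nt, and 3 of them stood together within 599 nt. The strongest Nedd4 peak was in this group, at 72655147 to 72655332. It was also the widest, with 186 nt, and its log2 fold of 6.17 (71.8-fold) came with a -log10 p of 15.5. Its fold was 0.94 (log2) above that of the next Nedd4 peak, and it exceeded 87.5% of all 2403 peaks in 3' UTRs. A 40 nt peak with a log2 fold of 4.36 ended 16 nt before it, at 72655091 to 72655130. The third of the group followed 228 nt further on, at 72655561 to 72655689 (129 nt), with 5.11. On either side of the group there was a lower peak: 1 at 72654470 to 72654555 (86 nt, log2 fold 4.25) and 1 at 72656915 to 72656953 (39 nt, 4.42). The last of these lay 1225 nt beyond the group. Since 3 of the 5 peaks were low, the median log2 fold of the Nedd4 3' UTR peaks was 4.42, against 4.64 for all peaks in 3' UTRs.

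The list gives no value per library. Under the reading below, the deposited fold and p together gave 1 pair of read ratios for each of the 12 Nedd4 peaks. The fold was read as the mean, over 2 pairs of IP and input libraries, of log2 read ratios scaled for depth. The p was read as the weaker of the 2 one-sided binomial p-values. The 2 depth terms taken from the p column average 0.799. The term for the folds was searched only close to that value, so its 0.799 is no separate check. This reading gave exactly 1 pair of ratios for 3612 of the 4172 peaks (86.6%). For 546 peaks it gave none and for 14 it gave several. The log2 folds read back reached at most 7.91, while deposited ones reached 11. Values over all peaks with 1 solution thus leave out the strongest peaks of the list. The pairs are called A and B here, because nothing ties them to the numbered replicates. In the pair with the weaker p the reads themselves are fixed, and in the other pair the smallest whole reads with the right ratio are given, so those are lower limits. An input value of 1 may also stand for an input of 0 that was raised to 1.

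Few reads stood behind each peak by this smallest solution. In pair A the 12 Nedd4 peaks had 10 to 37 IP reads (median 14.5), and in pair B they had 10 to 46 (median 17.5). In the smallest solution, input reads were 1 in both pairs for 10 of the 12 peaks. The exceptions were the second exon peak, with 16 IP and 2 input reads in both pairs, and the last 3' UTR peak, with 16 IP and 2 input reads in pair A and 19 IP and 1 input read in pair B. For the other 10 peaks an input of 1 is fixed in the pair with the weaker p and is the lowest possible value in the other pair. Over all peaks with 1 solution, the median was 15 IP reads in pair A and 17 in pair B.

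Both pairs put the same peak on top by fold. At the strongest 3' UTR peak there were 37 IP reads over 1 input read in pair A and at least 46 over 1 in pair B. By the smallest solution, every other Nedd4 peak had between 10 and 22 IP reads in either pair. The exact Poisson interval of 95%, which covers counting error only, ran from 26.1 to 51.0 reads for the strongest peak in pair A, where its reads are fixed. By the smallest solution, the intervals of 8 other peaks lay wholly below it in pair A. Those of the first 5' UTR peak (up to 27.2), the third 5' UTR peak (up to 33.3) and the fourth 3' UTR peak (up to 28.4) overlapped it. The strongest peak was picked as the highest of the 12, so these intervals are a description. This peak was also the widest of the 12. Per 100 nt it had 44.6 IP reads (both pairs added), which put it at place 6 of the 12, below the second exon peak with 119, the middle 5' UTR peak with 100, the last 3' UTR peak with 89.7, the peak just before it with 60 and the first exon peak with 54. Its lead in fold was not a lead in reads per base, but the peaks placed above it were the narrowest of the 12. A narrow listed peak shows many reads per 100 nt even with few reads, so this ranking largely follows width.

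The 5' UTR peaks had 17, 11 and 22 IP reads in pair A, against 1 input read each. In pair B they had 20, 11 and 21 IP reads, again against 1 input read each. The middle peak was thus the lowest of the 3 in both pairs. Reads were counted over windows of unlike width, and per 100 nt the middle peak had 100 IP reads (both pairs added), against 37.4 and 35.5 for the outer ones. The low fold of the middle peak came with fewer reads in a narrower window. A listed peak this narrow shows many reads per 100 nt even with few reads, so that value does not bear on its fold.

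The exon peaks had 12, 16, 13 and 13 IP reads in pair A and 15, 16, 15 and 20 in pair B, in 5' to 3' order. The second had as many IP reads as its neighbours or more, and its low fold comes with its 2 input reads in each pair. In the 3' UTR the reads of pair A were 12, 10, 37, 18 and 16, and those of pair B were 10, 14, 46, 22 and 19. The 40 nt peak just before the strongest one had fewer reads than it in both pairs. Per 100 nt of its narrower window it had more, 60 against 44.6.

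The folds of the 2 pairs lay close together at nearly every Nedd4 peak. The median absolute difference between pair A and pair B was 0.19 (log2), and it was also 0.19 over all peaks with 1 solution. Equal read ratios in both pairs give just this value through the depth terms, so the match says little about Nedd4. At 11 of the 12 peaks the pairs differed by less than 1. The exception was the last 3' UTR peak, with a log2 fold of 3.89 in pair A and 4.95 in pair B, where the second input read of pair A sets the difference. Over all such peaks 96.2% differed by less than 1. Pair A was higher at 4 Nedd4 peaks and pair B at 8. At the strongest peak the log2 folds were 6.10 in pair A and 6.23 in pair B. Across the 12 peaks the folds of the pairs had a Spearman rho of 0.82, as a description. All 12 come from the same libraries and had to pass in the deposited list.

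**Figure D2:**
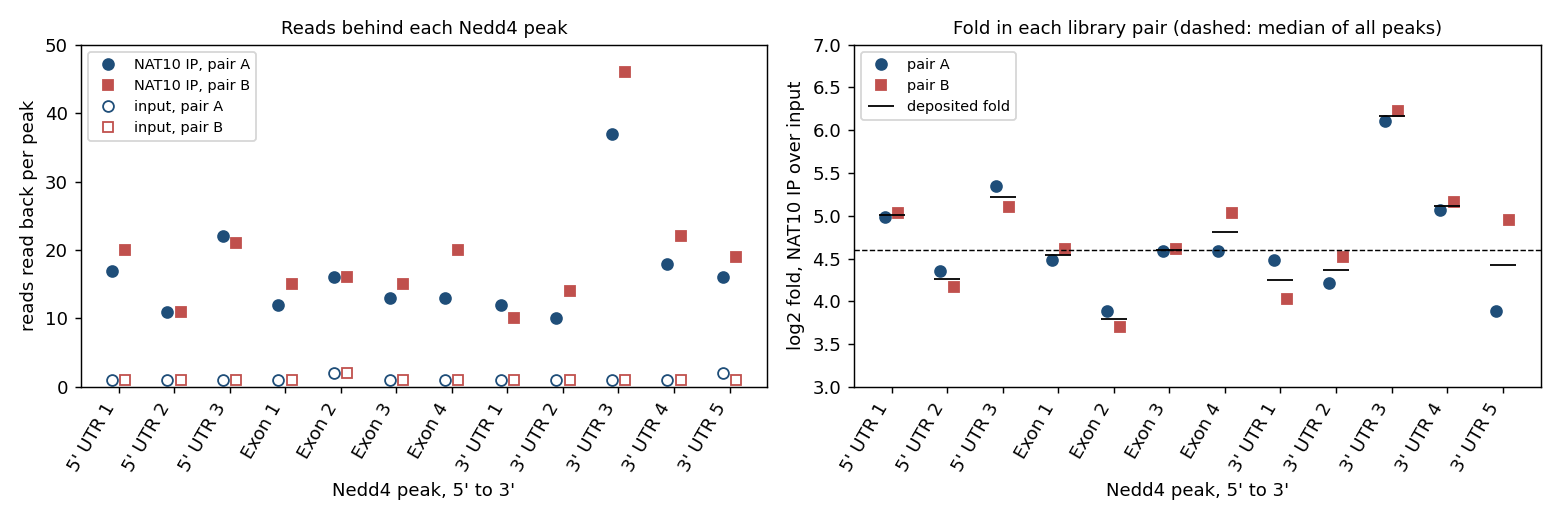
Left, the smallest whole reads read back for each Nedd4 peak in 5' to 3' order (vertical axis: reads per peak), with filled symbols for NAT10 IP and open symbols for input in library pairs A and B. Right, log2 fold of IP over input in each pair with the deposited fold as a black bar and the median of all peaks dashed. The third 3' UTR peak has the highest fold in both pairs (6.10 and 6.23), and the last 3' UTR peak has the widest distance between the pairs (3.89 and 4.95).

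Wider Nedd4 peaks had the higher folds. The Spearman rho between width and log2 fold was 0.86 over the 12 peaks, against 0.05 over all 4172 peaks. Among the 32 genes with 12 or more peaks, each taken by itself, this rho ran from -0.22 to 0.86 with a median of 0.20, and Nedd4 had the highest. These are correlations across peaks of the same libraries. A wider window can also collect more reads, but whether this bears on the Nedd4 rho was not tested. By the smallest solution, IP reads were shared among the transcript parts in about the proportion of the covered bases. The 3' UTR peaks held 47.2% of the Nedd4 IP reads in pair A and 48.5% in pair B, on 48.8% of the covered bases. The 5' UTR peaks held 25.4% and 22.7%, on 24.6% of the bases, and the exon peaks 27.4% and 28.8%, on 26.6% of the bases. Added over both pairs, the reads per 100 nt came to 42.1 in the 5' UTR, 45.8 in the exon class and 42.5 in the 3' UTR.

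Nedd4 stood higher in the list by the number of its peaks than by their height. Ranked by number of peaks, Nedd4 shared place 27 of 1627 genes with 5 others, and the median gene had 2 peaks. By its strongest log2 fold it was at place 186, by its strongest -log10 p at place 240 and by its median log2 fold at place 665. Genes with at least 12 peaks made up 1.97% of genes with a peak. Within these 32 genes Nedd4 was at place 24 by strongest fold. The SD of log2 fold over its peaks was 0.61, against a median of 0.81 over the 32 genes, and 27 of them varied more.

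None of the Nedd4 peaks touched the next one. Joining touching peaks left all 12 as separate regions. By that count Nedd4 stood at place 8, which 3 genes shared, itself included. It was the only one of the 32 genes without any touching pair. The others lost 1 to 16 peaks when touching ones were joined. Ikzf2, taken up below, lost only 1 of its 13 peaks and so also had 12 regions. With peaks up to 100 nt apart joined, Nedd4 had 9 regions, as the 5' UTR peaks became 1 region and the strongest 3' UTR peak took in the one before it.

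**Figure D3:**
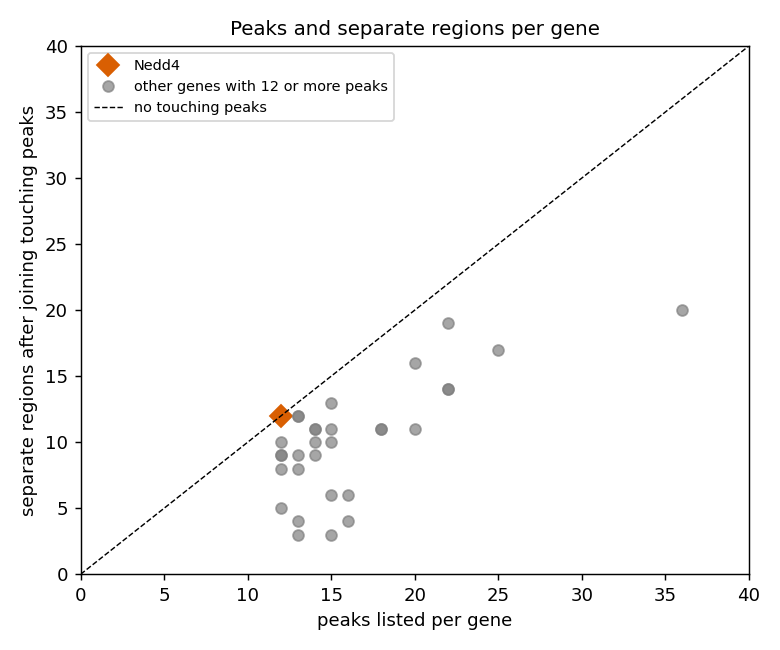
Separate regions after joining touching peaks (vertical axis) against peaks listed per gene (horizontal axis) for the 32 genes with 12 or more peaks, Nedd4 as a diamond and the others as grey circles. Nedd4, with 12 peaks and 12 regions, lies on the dashed line that marks genes without touching peaks, and all other genes lie below it.

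Nedd4 also had peaks in all parts of its mRNA. By share, 25% of its peaks were in the 5' UTR, 33.3% in the exon class and 41.7% in the 3' UTR, against 5.68%, 36.7% and 57.6% of all peaks. A 5' UTR peak was listed for 9.28% of genes with a peak, and peaks of all 3 classes for 1.97% (32 genes). Only 4 genes (0.246%) had 3 or more peaks in each class: Nedd4, Mecom, Luc7l2 and Ptp4a2. This grouping was made after the values were seen. Mecom, a transcription factor gene of blood stem cells, had 3 peaks in the 5' UTR, 10 in exons and 23 in the 3' UTR, with a median log2 fold of 6.60. Luc7l2, which encodes a splicing factor of the U1 particle, had 6, 4 and 12, with a median of 5.01. Ptp4a2, a phosphatase gene, had 4, 5 and 6, with a median of 4.92. The Nedd4 median of 4.57 was the lowest of these 4, and its median peak width of 79.5 nt was above those of Mecom (52.5 nt), Luc7l2 (62 nt) and Ptp4a2 (46 nt). The lengths of the transcript parts were not used, so none of these shares is set against what length alone would give.

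The genes whose peaks were most like those of Nedd4 were picked by number of peaks, 3' UTR share, median log2 fold and median width, compared over the 224 genes with at least 5 peaks. Nearest was Tax1bp1, an autophagy receptor gene, at a distance of 0.44 standard units, where the median gene was at 2.41. It too had 12 peaks, 7 in exons and 5 in the 3' UTR, a strongest log2 fold of 6.22 and a median of 4.79, but no peak in the 5' UTR. Lcp1, for the actin-bundling protein of white blood cells, stood at 0.83 with 10 peaks, and Stt3a, for a catalytic subunit of oligosaccharyltransferase, at 0.91 with 9 peaks. Ikzf2, for the transcription factor Helios, stood at 1.01 with 13 peaks. Likeness here is of 4 summary values within 1 list.

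Among the ligases related to NEDD4, no other had a peak. The family list held 9 genes, and besides Nedd4 these were Nedd4l, Itch, Wwp1, Wwp2, Smurf1, Smurf2, Hecw1 and Hecw2. Of all 21896 protein-coding genes in the RefSeq table, 7.33% had a peak, and 3.96% had one above the list's median fold. For so few family genes, none besides Nedd4 is near the 7.33%. Nedd4 itself was picked as a gene with peaks, so its own peaks are not set against these shares. A gene without a listed peak is not shown to be unbound, since the lowest log2 fold in the list was 3.00 and expression levels were not used here.

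Of 17 HECT ligases outside the family, 4 had peaks (23.5%, beside the 7.33% of all protein-coding genes). Not all of them are described here. Huwe1, the ligase of many nuclear and cytosolic proteins, had 1 peak of 5.01 in the 3' UTR. Hace1 had 2 touching exon peaks, the stronger at 4.60. Neither had a peak in the 5' UTR, where only 9.28% of all genes with a peak had one.

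Of the adaptors, 1 of 10 had peaks (10%), which is near the 7.33% of all protein-coding genes. This was Ndfip1, a membrane protein of endosomes that binds and activates NEDD4 ligases. Its 3 peaks, 2 in exons and 1 in the 3' UTR, reached a log2 fold of 4.32, with 4.35 in pair A and 4.29 in pair B. No arrestin-domain adaptor had a peak.

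The enzymes that supply ubiquitin to the ligase had 4 of 10 listed genes with peaks (40%, beside 7.33% of all protein-coding genes). Ube2d1, a conjugating enzyme that works with many HECT and RING ligases, had 1 exon peak at 6.20, close to the Nedd4 maximum of 6.17. Its relatives Ube2d2a, with 1 exon peak at 4.31, and Ube2d3, with 2 3' UTR peaks up to 4.55, were lower. Uba1, the main activating enzyme, had 1 exon peak at 4.38. Of the 4 genes that encode ubiquitin itself, 3 had peaks (75%, beside the same 7.33%), among them Ubb up to 6.14 in the 5' UTR and Rps27a up to 5.17 in an exon. Ubiquitin repeats are near-identical between these genes, so the gene behind a peak on such a repeat is uncertain. The Ubb peak named here is in the 5' UTR, outside the repeats. Rps27a also encodes a ribosomal protein, and which part its peaks lie on was not determined.

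Among 20 genes for known NEDD4 substrates or partners, 9 had peaks (45%, beside 7.33% of all protein-coding genes). The insulin receptor gene Insr had 5 exon peaks up to 6.08, and Igf1r, for the receptor of insulin-like growth factor, had 3 in the 3' UTR up to 5.58. Mycn, a transcription factor gene of the Myc family, had 1 3' UTR peak at 5.75. Lower were the endocytic adaptor gene Eps15 (5.22, 3' UTR), the antiviral membrane protein gene Ifitm3 (5.19, exon), the ubiquitin ligase gene Cbl (4.55, 3' UTR), the autophagy receptor gene Sqstm1 (4.55, exon) and the silencing factor gene Ago2 (4.05, 3' UTR). Reads of Ifitm3 may be shared with its close relatives. Of 7 deubiquitinases, Otub1 had 1 peak of 3.62 in the 3' UTR (14.3% of the list, beside the same 7.33%).

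Taking all 7 lists without Nedd4, 22 of 76 genes had a peak (28.9%), and over all genes with a peak the median strongest log2 fold was 4.69. Nedd4 had the most peaks of any gene in these lists, 12. It was the only one with peaks in all 3 classes, which 1.97% of all genes with a peak had. A 5' UTR peak was found in 1 other gene, Ubb, beside 9.28% of all genes with a peak. For the 22 other genes both counts are near these shares. The lists were not limited to genes expressed in 32D cells, and an mRNA with more copies gives more reads, so the part of expression in shares above 7.33% was not tested.

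**Figure D4:**
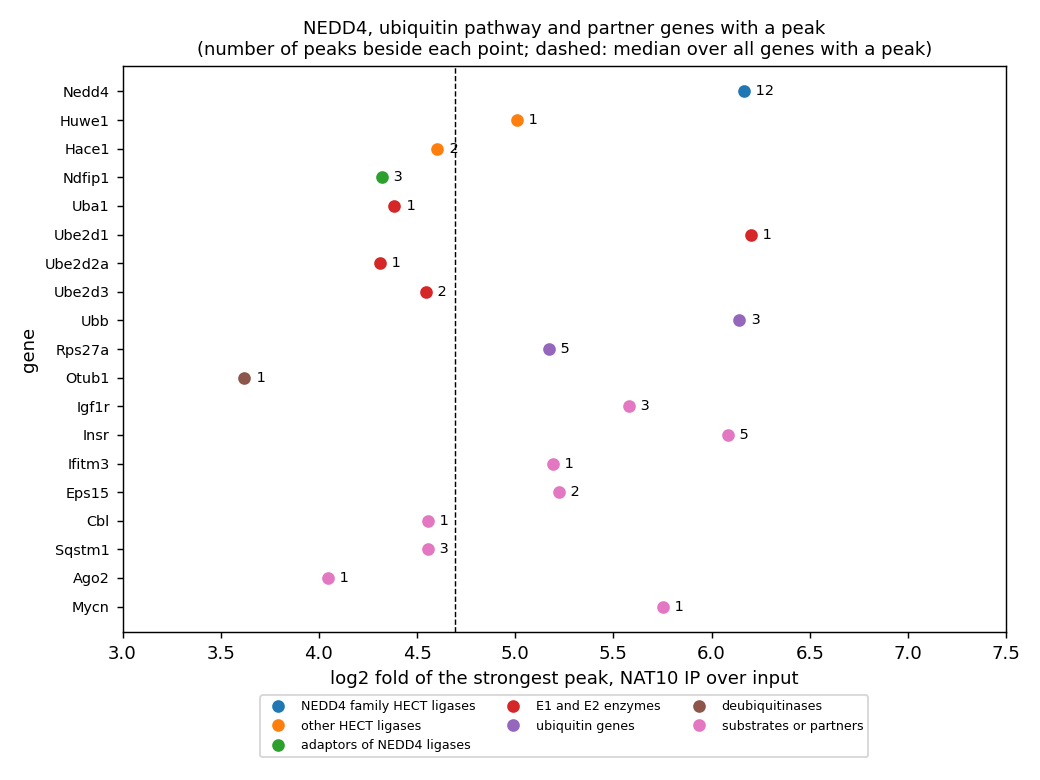
Log2 fold of the strongest peak (horizontal axis) for Nedd4 and for 18 other genes with a peak from the ubiquitin and NEDD4 partner lists (vertical axis, coloured by list), with the number of peaks beside each point. The dashed line is the median over all genes with a peak, 4.69; of the genes drawn, Ube2d1 (6.20) lies above Nedd4 (6.17).

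As for the cell type, 5 of 14 markers of 32D-like myeloid and mast cell progenitors had peaks (Csf2rb, Ptprc, Gata2, Prtn3 and Srgn) and 9 had none, while 0 of 10 markers of lymphoid, erythroid, liver and nerve cells had one. With 7.33% of all protein-coding genes having a peak, 0 of 10 is near that share, and a peak is not an expression level, so these counts do not check the label. On the chromosome, the protein-coding neighbours of Nedd4 in the RefSeq order are Rfx7 and Prtg. Rfx7, which encodes a transcription factor, had 1 3' UTR peak with a log2 fold of 4.11, and Prtg had none.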

How the data were processed

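NAT10 eCLIP of 32D cells was represented by 1 deposited peak list joined over 2 IP and 2 input libraries. The deposited p column was read as -log10 p and the deposited fold column as log2, as its values fit; both are the authors' own. Positions are on GRCm39 (per the submitters' processing notes). Aligner, peak caller and cut-offs: not given in the sources used here. A peak with several genes counts once among peaks and under each of its genes.

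Depth terms were fitted to the p column, then whole reads (up to 8 input reads) were searched that give fold within 2e-06 and p within 1e-05 plus 5e-06 of its value. The search was tested on data simulated under this same reading of fold and p. That test cannot show that the authors' columns were made this way. No reads were counted from libraries, and library totals were not used here. Symbols were matched to RefSeq (GRCm38.p6) for names and gene types: 1609 of 1627. Members and lists were chosen with earlier results of these data known. Named genes are all list members with a peak, the NEDD4 family and the 5 genes most like Nedd4; some of these are not reported here. Python 3.11.15, scipy 1.17.1 and pandas 2.3.3 were used. Alternatives were thresholds, joining, short peaks, strength measures and single library pairs.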

Additional observations from a re-analysis of the deposited data

How the results depend on the processing

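For 7 results 21 alternatives were run, of which 13 stayed within the margin set and 8 did not. The margin was 1.5 times for counts and ranks, the exact interval of 15.2 to 72.3% for the 3' UTR share (40 to 60% over its alternatives) and the typical difference between pairs for the median fold. With only peaks above the list's median fold, 5 Nedd4 peaks were left and Nedd4 stood at place 66 by number of peaks. With a -log10 p of at least 5, there were also 5 peaks, with a median log2 fold of 5.11. Joining touching peaks moved Nedd4 to a tied place 8 by number, and ranking genes by median fold moved it to place 665. With joined regions, 3 of the 5 most similar genes remained (Tax1bp1, Lcp1 and Ikzf2). The median log2 fold was 4.54 from pair A alone and 4.78 from pair B alone, the latter outside the margin. Over all peaks with 1 solution it was 4.59 in pair A and 4.61 in pair B. The Nedd4 median was thus below that of the list in pair A and above it in pair B. The single-pair values and read shares were added after the data were seen. No paired analysis was possible because pairs A and B could not be tied to the numbered replicates and no result comes from a test; the values of each pair are given instead. With 10 to 46 IP reads a peak and mostly 1 input read by the smallest solution, depth limits the precision of each fold.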
